A study of Mus musculus with 24 samples.

Results

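Mitochondrial ribosomal protein genes are the nuclear genes named Mrpl or Mrps followed by a number, and they were taken here as every probe set on the array whose single gene symbol has that form. The array carried 156 such probe sets for 76 genes. A probe set was kept where its mean over the arrays of striatum or of cerebellum reached 4 on the log2 scale, and the kept probe set with the highest mean over 24 arrays stood for its gene. This left 75 genes, of 10766 genes kept on the whole array. Mrpl55 was left out, with means of 3.40 in striatum and 3.58 in cerebellum, and the gene kept with the lowest level, Mrpl14, had a higher tissue mean of 5.21.

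The study profiled brain tissue of mice with the Huntington's disease mutation in their own huntingtin gene. Homozygous knock-in mice (HdhQ111/HdhQ111, written Q111 from here on) carry an expanded glutamine stretch in both huntingtin alleles, labelled Q111/Q111, and wild-type mice (Hdh+/Hdh+) are labelled Q7/Q7. Striatum and cerebellum were each represented by 6 arrays per genotype, giving 4 groups and 24 arrays of total RNA on the Affymetrix MG430 2.0 array. All mice were aged 3 to 10 weeks per the labels, which give no sex, no exact age per array and no link between an array and a mouse. The mutation lies in the mouse's own gene, so no transgene promoter or Cre driver is involved. The labels call the arrays of a group biological replicates, and p-values measure the spread between those arrays. The arrays are of whole tissue, where fewer cells of a type and less RNA per cell cannot be told apart.

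Mitochondria have ribosomes of their own, which translate the few proteins encoded by mitochondrial DNA, all of them core subunits of the oxidative phosphorylation complexes. The ribosomal RNAs come from mitochondrial DNA, while every ribosomal protein is encoded in the nucleus, made in the cytosol and imported. Some of these proteins descend from bacterial ribosomal proteins and others are found only in mitochondria. Of the 75 genes, 48 encode proteins of the large subunit, 26 of the small subunit, and 1, Mrps36, encodes a protein now assigned to the oxoglutarate dehydrogenase complex. By origin, 44 had a bacterial counterpart and 30 did not. Mrps30 and Mrps18a are named after the small subunit but belong to the large one, and were counted there. The 75 genes lay on 17 chromosomes, with the largest number, 10, on chromosome 11.

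Promoter sequences from RefSeq (GRCm38.p6) were found for 66 of the 75 genes and are shown for 5 genes, chosen after their values were seen. The stretches below run from 150 bases before to 30 bases after the annotated start, 5′ to 3′ on the strand of the gene. Capitals mark matches, on either strand, to GCGCANGCG (the core recognised by NRF1, a regulator of nuclear genes for mitochondria), CCGGAAG (the core recognised by ETS factors such as GABP) and ATGGCGG (a core recognised by YY1). The first is Mrpl33 at chr5:31613801-31613980 on the plus strand, the gene with the clearest genotype difference. Mrpl46 at chr7:78783060-78783239 on the minus strand is the other gene that passed the genotype test. Mrpl22 at chr11:58171514-58171693 on the plus strand is the one member with all 3 motifs. Mrpl27 at chr11:94653641-94653820 on the plus strand and Mrpl17 at chr7:105811058-105811237 on the minus strand were higher in striatum than in cerebellum.
Mrpl33: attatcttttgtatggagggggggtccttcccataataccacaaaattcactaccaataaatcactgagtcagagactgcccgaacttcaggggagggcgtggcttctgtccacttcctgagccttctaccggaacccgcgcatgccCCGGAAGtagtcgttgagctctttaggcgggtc
Mrpl46: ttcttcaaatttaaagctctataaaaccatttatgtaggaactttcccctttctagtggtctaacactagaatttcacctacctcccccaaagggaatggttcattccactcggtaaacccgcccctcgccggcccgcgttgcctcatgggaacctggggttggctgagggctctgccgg
Mrpl22: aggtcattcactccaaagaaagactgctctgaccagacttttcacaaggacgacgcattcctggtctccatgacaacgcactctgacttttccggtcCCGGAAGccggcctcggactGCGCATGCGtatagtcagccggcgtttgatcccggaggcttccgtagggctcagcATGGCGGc
Mrpl27: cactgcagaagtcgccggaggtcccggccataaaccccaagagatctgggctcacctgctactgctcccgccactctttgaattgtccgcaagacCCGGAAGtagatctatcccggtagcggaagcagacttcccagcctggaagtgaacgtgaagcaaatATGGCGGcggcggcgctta
Mrpl17: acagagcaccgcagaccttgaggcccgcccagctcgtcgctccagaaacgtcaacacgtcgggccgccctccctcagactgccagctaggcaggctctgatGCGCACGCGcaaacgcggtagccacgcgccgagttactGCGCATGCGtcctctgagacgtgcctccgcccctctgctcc

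Within the window from 250 bases before to 50 bases after the start, 41 of 66 members (62.1%) held at least 1 of the 3 motifs, against 37.4% of the genes kept on the array with a promoter entry and 18.5% of all genes of the table. The ETS core was found in 25 members (37.9%), against 19.5% of genes kept and 9.93% of all genes. The NRF1 core was found in 15 members (22.7%), against 15.8% and 7.03%. The YY1 core was found in 12 members (18.2%), against 9.54% and 4.69%. Matches were counted separately for each motif, overlap being allowed. They describe the letters of the window and are not evidence of binding. Mrpl33 held the ETS core only, Mrpl17 also held it outside the stretch shown, and Mrpl46 held none of the 3 in the window.

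Many members also stand head to head with another gene. A protein-coding gene on the opposite strand started within 500 bases upstream for 20 of 66 members (30.3%), against 11.5% of genes kept and 7.53% of all protein-coding genes of the table. These made 19 pairs, with 32 to 332 bases between the starts. Mrpl46 and Mrps11 are both members, with 42 bases between their starts. Other partners belong to mitochondria as well: Sars2, the mitochondrial seryl-tRNA synthetase, beside Mrps12, Twnk, the helicase of mitochondrial DNA, beside Mrpl43, and Ndufb5, a complex I subunit, beside Mrpl47. Both genes were kept on the array for 13 pairs, and in 8 of these their wild-type striatum and cerebellum values differed in the same direction. That share was not measured for other pairs of genes, and 55.3% of all genes kept were lower in striatum in value.

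In striatum the family differed little between genotypes, with Mrpl33 higher and Mrpl46 lower in Q111. Of 75 members, 1 was called higher and 1 lower in Q111 (limma across all probe sets kept, Benjamini-Hochberg adjusted p under 0.05), beside 0.873% of genes called higher and 1.9% called lower on the whole array. Lower values were nonetheless common in size below that threshold. The difference Q111 minus wild type was below 0 for 59 of 75 members (78.7%, against 57.8% of all genes kept), with a median of -0.10 on the log2 scale against -0.03. An unadjusted p under 0.05 was found for 22 members (29.3%, against 19.2% of all genes kept). No member differed by 1.5-fold or more, and for 72 of 75 the 95% interval of the difference lay within 1.5-fold either way.

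**Figure D1:**
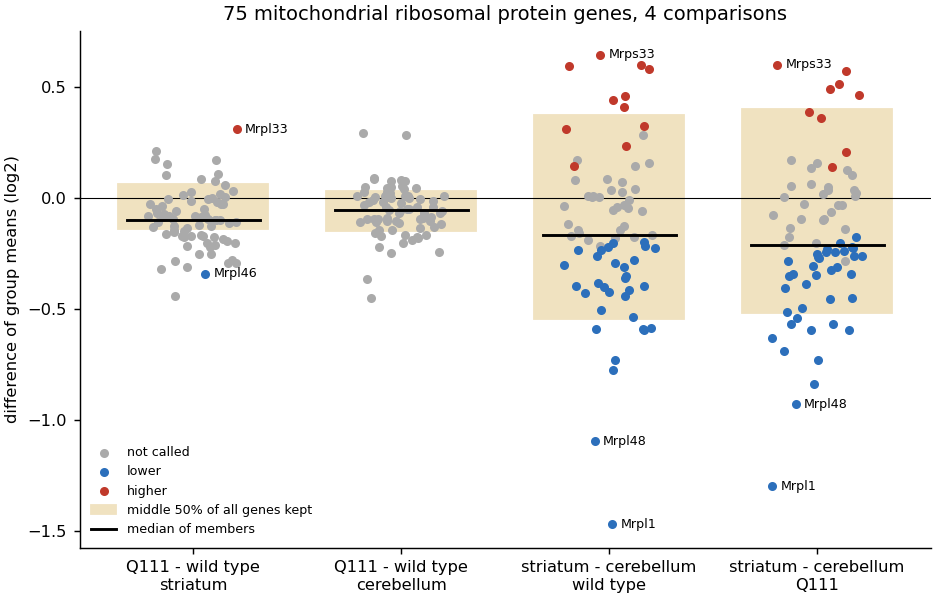
Differences of group means on the log2 scale for the 75 genes in 4 comparisons, 1 point per gene, coloured where the gene was called at an adjusted p under 0.05; the black bar is the median of the members and the shaded box the middle 50% of all genes kept. Only Mrpl33 and Mrpl46 are coloured in the genotype comparisons, while the tissue comparisons spread from -1.47 to 0.65 in wild-type mice.

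Mrpl33 encodes a small protein of the large subunit with a bacterial counterpart. Its values in striatum ran from 9.22 through a median of 9.32 to 9.47 in wild-type arrays and from 9.49 through 9.59 to 9.81 in Q111 arrays. All 6 Q111 arrays were above all 6 wild-type arrays, the only member for which the groups did not overlap, beside 2.43% of genes on the whole array. The difference was 0.31 ± 0.07 (SE; 1.24-fold), with a limma adjusted p of 0.0151. Arrays numbered 1 to 3 and 4 to 6 in the labels gave the same size, 0.31 in each set taken alone (adjusted p = 0.182 and 0.158 with 3 arrays a group). The call held with each of the 24 arrays left out in turn. It ended with the replicate number as a block, at an adjusted p of 0.0717.

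Mrpl33 lies on chromosome 5, as does Htt, with 41 protein-coding genes between them. The other 3 members on that chromosome are farther away: Mrpl1 with 319 genes between, Mrps18c with 346 and Mrps17 with 691. Their differences in striatum were 0.18 for Mrpl1, -0.09 for Mrps18c and -0.12 for Mrps17, and none of the 3 was called. Whether the position of Mrpl33 bears on its value was not tested.

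Mrpl46 encodes a large subunit protein with no bacterial counterpart. Wild-type striatum arrays ran from 7.67 through a median of 7.99 to 8.17, and Q111 arrays from 7.41 through 7.61 to 7.89. All 6 Q111 arrays were below the wild-type median, but the groups overlapped, since the lowest wild-type array was under the highest Q111 array. The difference was -0.34 ± 0.09 (SE; 1.27-fold), with a limma adjusted p of 0.0459. That call was marginal: it was lost when any of 10 of the 12 striatum arrays was left out, the adjusted p then reaching at most 0.118. It was also lost without 6 of the 12 cerebellum arrays, which enter only the shared spread. The exceptions in striatum were wild-type array 3 and Q111 array 3, without which it was 0.0261 and 0.0272. Mrps11, which starts head to head with Mrpl46, differed by -0.07 and was not called.

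**Figure D2:**
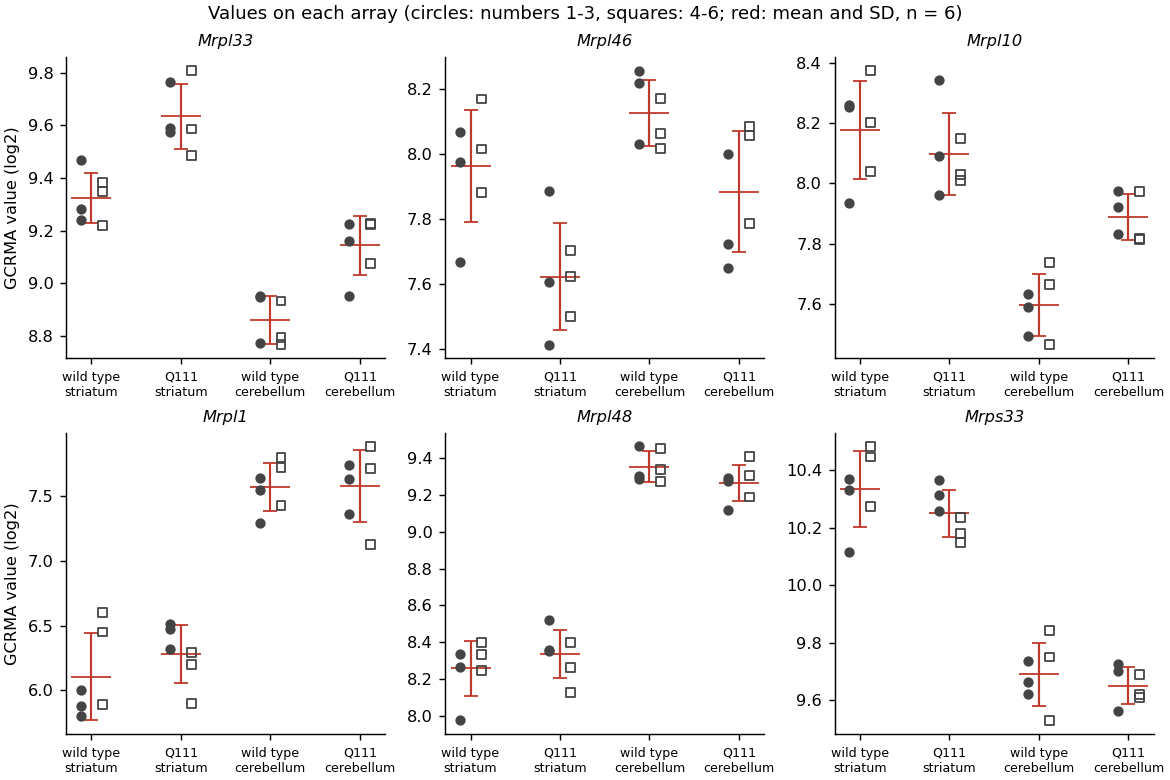
GCRMA values on the log2 scale on each array for 6 genes in the 4 groups, with circles for arrays numbered 1 to 3, squares for 4 to 6, and the group mean and SD (n = 6) in red; each panel has its own axis, which does not start at 0. The Mrpl33 groups do not overlap between genotypes in either tissue (called in striatum only), the Mrpl10 groups do not overlap in cerebellum, and Mrpl1, Mrpl48 and Mrps33 separate the tissues rather than the genotypes.

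The other members with the largest differences in striatum did not pass the test. Mrpl13, a large subunit protein with a bacterial counterpart, ran from 9.30 through 9.51 to 9.74 in wild type and from 9.57 through 9.74 to 9.83 in Q111, a difference of 0.21 ± 0.09 (SE; limma adjusted p = 0.194), and Mrpl1, of the mobile stalk where tRNA leaves the ribosome, by 0.18 ± 0.15 (adjusted p = 0.557). For Mrpl1 the sets of arrays disagreed, at 0.54 for numbers 1 to 3 and -0.19 for numbers 4 to 6. In the other direction, Mrpl34, a very small protein of the large subunit, ran from 6.73 through 7.09 to 7.28 in wild-type striatum and from 6.02 through 6.55 to 7.14 in Q111. Its difference of -0.44 ± 0.15 (SE) was larger than that of Mrpl46, but the Q111 arrays spread more widely (SD 0.40 against 0.19) and the adjusted p was 0.112. Mrps16, a small subunit protein mutated in a human deficiency of mitochondrial translation, ran from 7.92 through 8.11 to 8.23 in wild type and from 7.54 through 7.80 to 8.09 in Q111, a difference of -0.32 ± 0.10 (SE; adjusted p = 0.0774).

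Genes of both subunits lay mostly below 0. The median difference in striatum was -0.08 over 48 large subunit genes, 37 of them below 0, and -0.10 over 26 small subunit genes, 21 of them below 0. Genes with a bacterial counterpart had a median of -0.10 and those without one -0.08. The mean of the 75 genes on an array ran from 8.34 through a median of 8.42 to 8.53 in wild-type striatum and from 8.23 through 8.33 to 8.46 in Q111 striatum, so the groups overlapped. Group means were 8.43 ± 0.07 and 8.34 ± 0.07 (SD, n = 6).

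The lower values in Q111 striatum were more marked among arrays numbered 4 to 6. There 61 of 75 members were below 0 and the median was -0.18, against 43 members and -0.04 for numbers 1 to 3. Over all genes the medians were -0.07 and -0.01 respectively. Within each tissue the means of these sets, taken over both genotypes, nearly coincided over the probe sets kept (SD of their difference 0.04). No label says whether the sets were centred on each other before deposit; if they were, p-values are too small and a block for the set cannot show a set effect. With that block Mrpl33 stayed called in striatum (limma adjusted p = 0.0318) and Mrpl46 did not (0.0734). Other scalings moved the members along with the whole array. After quantile normalisation 51 members were below 0, with a median of -0.06 beside 0.0038 over all probe sets kept, and after median centring 49, with -0.05 beside 0.03; without them it was -0.10 beside -0.02. The call for Mrpl46 was lost in both.

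**Figure D3:**
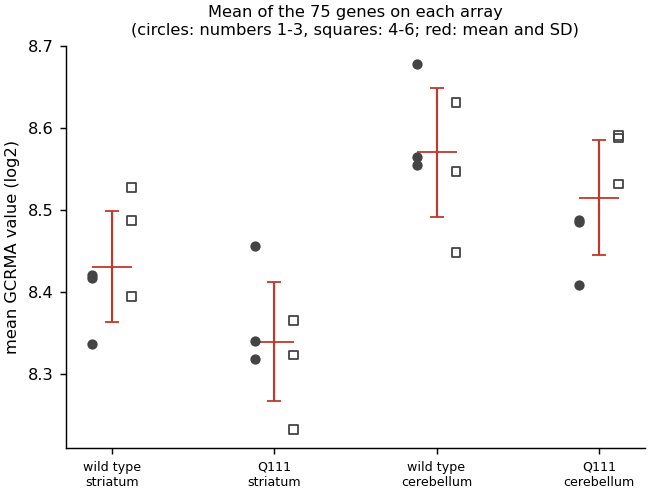
Mean GCRMA value (log2) of the 75 genes on each array by group, with circles for arrays numbered 1 to 3, squares for 4 to 6, and the group mean and SD (n = 6) in red; the axis does not start at 0. The genotypes overlap in both tissues, and both cerebellum groups, at 8.57 and 8.52, lie above both striatum groups, at 8.43 and 8.34.

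Markers of some other cell types differed with genotype in the striatum arrays, where 2.78% of all genes kept were called. All 10 measured markers of cerebral cortex neurons were higher in Q111 in value, with a median of 0.40, and 2 passed the test, Neurod6 (1.12, limma adjusted p = 0.00345) and Fezf2 (0.71, adjusted p = 0.0132). Their mean level per array ran from 6.77 to 7.46 in wild-type and from 7.06 to 7.96 in Q111 striatum. For myelinating oligodendrocytes, 9 of 10 markers were lower in value and none passed, with mean levels of 11.21 to 11.46 and 10.75 to 11.38. For endothelial and mural cells all 7 were lower in value and 2 passed, with mean levels of 7.10 to 7.50 and 6.83 to 7.09. For microglia 3 of 8 markers were called higher and 1 lower. In value 4 were higher and 4 lower, with a median of 0.003. Thalamus and septum markers were higher in value for 4 and lower for 4, with 1 called higher. Astrocyte markers were higher in value for 4 and lower for 6, with 1 called lower. None was called among markers of choroid plexus and ependyma, cerebellar granule neurons or Purkinje cells. The 12 measured markers of striatal projection neurons had a median of -0.13 with none called. In cerebellum none of the marker lists had a called member. The part of these differences in the values of the mitochondrial ribosomal protein genes was not tested.

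In cerebellum no member passed the genotype test, beside 0.0929% of genes called higher and 0.353% called lower on the whole array. An unadjusted p under 0.05 was found for 11 members (14.7%), near the 14.4% of all genes kept. The median difference of -0.05 was equal to that of all genes kept, -0.05, and both moved together with scaling. After quantile normalisation the members' median was 0.02 and that of all probe sets kept 0.01, and after median centring both were 0.05. The sign of the members' median in cerebellum thus changed with the scaling. It also differed between the sets of arrays, at -0.14 for numbers 1 to 3 (67 of 75 below 0) and 0.05 for numbers 4 to 6 (33 of 75 below 0). All intervals lay within 2-fold, and 73 of 75 within 1.5-fold.

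Mrpl10 and Mrpl33 were the members whose cerebellum groups did not overlap, beside 1.21% of genes on the whole array. Mrpl10 anchors the L12 stalk, which recruits translation factors to the ribosome. It ran from 7.46 through 7.61 to 7.74 in wild-type cerebellum and from 7.81 through 7.88 to 7.98 in Q111, a difference of 0.29 ± 0.08 (SE; 1.23-fold, limma adjusted p = 0.0781). Mrpl33 ran from 8.77 through 8.86 to 8.95 and from 8.95 through 9.19 to 9.23, a difference of 0.28 ± 0.07 (SE; 1.22-fold, adjusted p = 0.0555). For Mrpl33 the lowest Q111 array, at 8.9513, was barely above the highest wild-type array, at 8.9505. Both genes had higher group means in Q111 in each set of numbers, at 0.34 and 0.25 for Mrpl10 and 0.22 and 0.34 for Mrpl33. They passed the test after quantile normalisation (0.0219 for Mrpl10 and 0.0209 for Mrpl33), after median centring (0.0191 and 0.0161) and with array weights (0.0208 and 0.025). They were further from it with the replicate block (0.187 and 0.192), with the number set as a block (0.135 and 0.107) and in the number sets alone (0.392 to 0.559 over both genes).

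The largest lower values in cerebellum belonged to Mrps27, Mrpl14 and Mrpl47. Mrps27, a pentatricopeptide repeat protein of the small subunit, ran from 5.66 through 5.88 to 6.22 in wild type and from 5.17 through 5.49 to 5.75 in Q111, a difference of -0.45 ± 0.12 (SE; limma adjusted p = 0.0991). All 6 Q111 arrays were below the wild-type median, and the groups overlapped. Mrpl14, which lies at the interface of the subunits, differed by -0.36 ± 0.18 (SE; adjusted p = 0.369). Mrpl47, a protein beside the exit tunnel, differed by -0.24 ± 0.10 (SE; adjusted p = 0.258). In striatum the same 3 genes had differences of -0.25, -0.31 and -0.28, none of which passed. The third largest higher value in cerebellum, after Mrpl10 and Mrpl33, was 0.09 for Mrpl42 (adjusted p = 0.674).

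No member passed the test for a genotype difference that itself differed between the tissues. The interaction, the striatum difference minus the cerebellum difference, was called for 0 members by limma, beside 0.0372% of genes called higher and 0.0464% called lower, and 6 members (8.0%) had an unadjusted p under 0.05, against 10.2% of all genes kept. For Mrpl33 it was 0.03 ± 0.09 (SE), with a 95% interval from -0.17 to 0.22. For Mrpl46 it was -0.10 ± 0.13 (SE), with an interval from -0.37 to 0.17. Mrpl10 had -0.37 ± 0.11 (SE; adjusted p = 0.153), since it differed by -0.08 in striatum and 0.29 in cerebellum. Other large values were 0.34 for Mrpl13, 0.27 for Mrpl39 and 0.20 for Mrps23 on one side, and -0.38 for Mrps34 and -0.35 for Mrpl34 on the other.

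Between the tissues the family differed far more than between genotypes, though its members were called less often than genes at large. Most of the called members were lower in striatum. In wild-type mice 11 members were called higher in striatum and 32 lower, beside 32.1% of genes called higher and 41.6% called lower on the whole array. In all 57.3% of the 75 were called, against 73.8% of all genes kept. The median difference, striatum minus cerebellum, was -0.16 against -0.08 over all genes kept. In size the members differed less than other genes: the median absolute difference was 0.23 against 0.47, and 11 of 75 members reached 1.5-fold, against 4542 of 10766 genes. Only Mrpl1 and Mrpl48 reached 2-fold. The arrays of the tissues did not overlap for 26 of 75 members, beside 55.2% of genes on the whole array.

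Among the genes lower in striatum, those of the large subunit led. Mrpl1, the stalk protein, ran from 5.80 through 5.95 to 6.61 in wild-type striatum and from 7.30 through 7.60 to 7.80 in wild-type cerebellum. The groups were far apart, with a difference of -1.47 ± 0.15 (SE; 2.76-fold, limma adjusted p = 2.79e-09). Its other kept probe set differed by only -0.23 (adjusted p = 0.0695), so the size rests on the probe set. Mrpl48, a protein of the central protuberance, ran from 7.98 through 8.30 to 8.40 and from 9.27 through 9.32 to 9.46, a difference of -1.09 ± 0.07 (SE; 2.14-fold, adjusted p = 1.83e-12). Its other probe sets gave -0.54 and -0.73, in the same direction.

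Mrpl58, also known as ICT1, is a peptidyl-tRNA hydrolase built into the large subunit that rescues stalled ribosomes. It was 0.77 ± 0.09 (SE) lower in striatum on the log2 scale, with striatum arrays from 8.04 to 8.58 and cerebellum arrays from 8.86 to 9.20. Mrpl45, which tethers the ribosome to the inner membrane beside the exit tunnel, differed by -0.73 ± 0.09 (SE). Mrpl44, whose fold resembles ribonuclease III, differed by -0.59 ± 0.08 (SE), and Mrpl14 by -0.59 ± 0.18 (SE). Mrpl12, the stalk protein that also binds the mitochondrial RNA polymerase, differed by -0.50 ± 0.09 (SE). Of the small subunit, Mrps22, mutated in a human mitochondrial disease, differed by -0.59 ± 0.09 (SE) and Mrps27 by -0.59 ± 0.12 (SE). Adjusted p-values of these 7 genes by limma ran from 3.93e-08 for Mrpl58 to 0.00489 for Mrpl14. Mrpl14 and Mrps27 were the 2 of these whose groups overlapped, and for Mrpl14 the arrays numbered 4 to 6 alone gave -0.35.

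Fewer members were higher in striatum, and their differences were smaller. Mrps33, a small subunit protein found only in mitochondria, ran from 10.12 through 10.35 to 10.48 in wild-type striatum and from 9.53 through 9.70 to 9.84 in cerebellum, a difference of 0.65 ± 0.06 (SE; 1.57-fold, limma adjusted p = 2.98e-09). Its groups did not overlap. Mrpl27 ran from 10.39 through 10.52 to 10.68 in striatum and from 9.74 through 9.96 to 10.07 in cerebellum. This protein, which reaches towards the tRNA at the peptidyl transferase centre, was higher by 0.59 ± 0.07 (SE), and Mrpl10 by 0.58 ± 0.08 (SE). Mrpl3 was higher by 0.60 ± 0.08 (SE), with a reservation on its probe sets given further on. Mrpl33 was higher by 0.46 ± 0.07 (SE), Mrpl17, a protein near the exit tunnel, by 0.44 ± 0.07 (SE), and Mrpl52 by 0.41 ± 0.07 (SE). All 7 of these genes had striatum arrays entirely above cerebellum arrays. Mrpl54 was called with 0.33 ± 0.13 (SE; adjusted p = 0.026), but its groups overlapped and arrays numbered 1 to 3 alone gave 0.11.

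**Figure D4:**
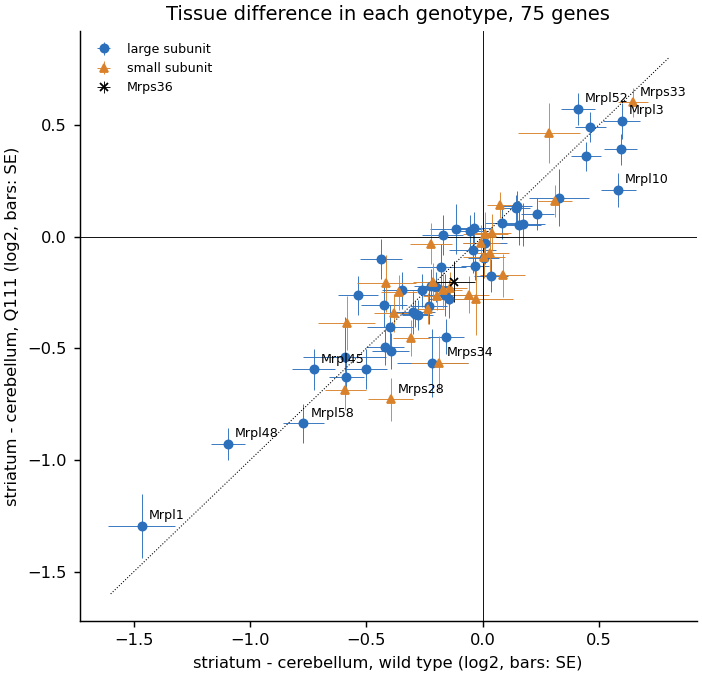
Striatum minus cerebellum difference (log2) of the 75 genes in wild-type mice on the horizontal axis and in Q111 mice on the vertical axis, coloured by subunit, with SE bars and a dotted line of equal values. The genotypes share no arrays; 65 of 75 genes have the same sign in both, with Mrpl1 lowest and Mrps33 highest in each.

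Q111 mice repeated the pattern with other arrays. There 9 members were called higher in striatum and 38 lower, beside 32.9% of genes called higher and 40.7% called lower. In all 62.7% of the 75 were called, against 73.6% of all genes kept. The median difference of the members was -0.21. The arrays did not overlap for 21 members, beside 53.9% of genes. The sign was the same in both genotypes for 65 of 75 members (86.7%), against 92.0% of all genes kept. Of the called members, 7 were higher in both genotypes, 29 lower in both and 0 opposite, beside 3146, 4012 and 5 of 10766 genes kept. In Q111 mice Mrpl1 differed by -1.30 ± 0.15 (SE), Mrpl48 by -0.93 ± 0.07 (SE), Mrpl58 by -0.84 ± 0.09 (SE) and Mrps33 by 0.60 ± 0.06 (SE). Other members were called in 1 genotype alone, 7 in wild type and 11 in Q111, beside 777 and 760 of 10766 genes kept. The interaction was not called for any member. Mrpl34 gave -0.22 in wild type (limma adjusted p = 0.207) and -0.57 in Q111 (0.00204), and Mrps34, a small subunit protein, -0.19 (0.174) and -0.57 (0.000229). Mrpl13 gave -0.44 in wild type (0.000127) and -0.10 in Q111 (0.331). Within the sets of arrays the wild-type count fell to 25 called members with numbers 4 to 6 alone, and the Q111 count to 23 with numbers 1 to 3 alone.

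Both subunits held genes of either direction in wild-type mice. Among 48 large subunit genes 9 were called higher and 21 lower, with a median of -0.17, and among 26 small subunit genes 2 were higher and 11 lower, with a median of -0.16. Of 44 genes with a bacterial counterpart 6 were called higher and 16 lower (22 in all), with a median of -0.13, and of 30 without one 5 higher and 16 lower (21 in all), with a median of -0.21. The called shares of these 2 classes in wild-type mice were 50% and 70%, against 73.8% of all genes kept. In Q111 mice they were 54.5% and 76.7%, against 73.6%. The difference between these classes was not tested. Mrps30 and Mrps18a, the large subunit proteins with small subunit names, gave 0.14 (limma adjusted p = 0.0372) and -0.05 (adjusted p = 0.544). The call for Mrps30 was lost with any of 6 single arrays left out, at an adjusted p of at most 0.0987. Mrps36, of the oxoglutarate dehydrogenase complex, gave -0.12 (adjusted p = 0.228).

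Where a gene had several kept probe sets, they did not always give the same direction. Of 28 such genes, 14 had a single direction between genotypes in striatum and 15 in cerebellum. In striatum the probe sets of Mrpl13 gave 0.21, -0.13 and 0.08. Directions counted over the 75 genes rest on 1 probe set each. Mrpl33 and Mrpl46 had 1 kept probe set each. In the wild-type tissue comparison 20 of the 28 had a single direction, and of the 16 called among them 3 had another probe set of opposite sign. These were Mrpl3, Mrpl44 and Mrpl51. Mrpl3, which borders the peptidyl transferase centre, was higher in striatum by 0.60 ± 0.08 (SE) with the probe set that stands for it and by 0.24 with the next, but lower by 0.39 on the log2 scale with the dimmest (limma adjusted p = 0.00334). Mrpl51 gave -0.29 and, with a probe set of mean 4.25, 0.25 (adjusted p = 0.04). The probe sets of Mrpl44 gave -0.59, -1.05, -0.32 and 0.03. In Q111 mice Mrps24 and Mrps25 joined them, Mrps24 with -0.24 and 0.01 and Mrps25 with 0.46 and -0.04.

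**Figure D5:**
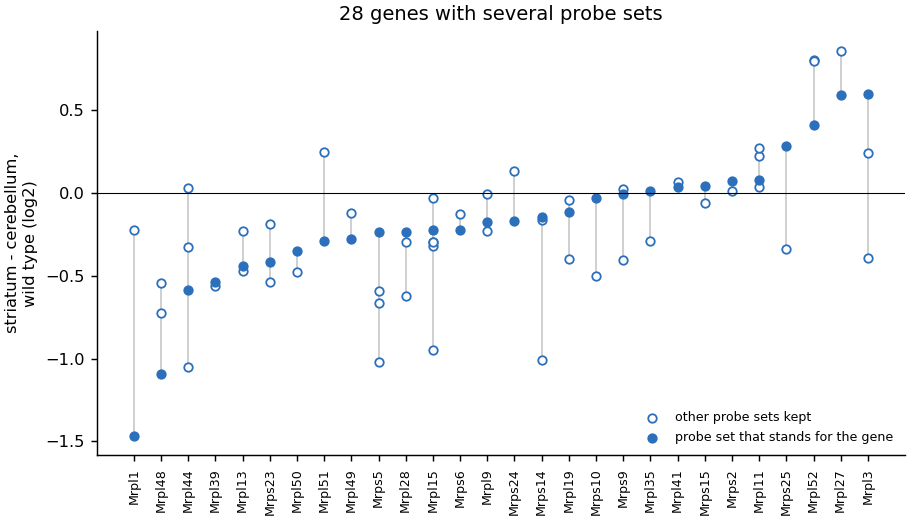
Striatum minus cerebellum difference (log2) in wild-type mice for each kept probe set of the 28 genes that have several, ordered by the probe set that stands for the gene (filled). A grey line spans the values of each gene; it crosses 0 for 8 of 28 genes, and is longest where the probe sets of Mrpl1 give -1.47 and -0.23.

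The other parts of the mitochondrial translation system were read from lists made for this work. Over all genes kept, 0.873% were called higher and 1.9% lower in Q111 striatum. Between wild-type tissues 32.1% were called higher and 41.6% lower in striatum. Of the 4 measured mitoribosomal proteins named outside the Mrp series, none was called in the genotype comparisons. In the wild-type tissue comparison 3 were lower in striatum, namely Chchd1 (-0.44), Gadd45gip1 (-0.30) and Ptcd3 (-0.25). The fourth, Dap3, a small subunit protein that binds GTP, had a difference of -0.55 in Q111 striatum (limma adjusted p = 0.0851).

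Of 23 ribosome assembly factors 1 was called between genotypes, in striatum (4.35%, against 2.78% of all genes kept). This was Malsu1, which binds the large subunit through Mrpl14 and keeps the subunits apart, at -0.37 (limma adjusted p = 0.0435). Between tissues in wild-type mice 4 were higher and 11 lower in striatum, from -1.11 for Mpv17l2 to 0.97 for Tfb1m, the methyltransferase of the small ribosomal RNA. Of 13 translation factors 2 were lower in Q111 striatum, Mtfmt, which formylates the initiator tRNA (-0.40, adjusted p = 0.0131), and the elongation factor Gfm1 (-0.33, adjusted p = 0.0373). Between tissues 2 were higher and 3 lower. The list of 16 aminoacyl-tRNA synthetase genes also held the amidotransferase subunit genes Qrsl1, Gatb and Gatc. None of the 16 was called between genotypes, while 6 were higher and 5 lower in striatum. None of the lists had a member called in Q111 cerebellum.

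Nrf1, the gene of the factor behind the NRF1 core, had no probe set that was kept. Of 7 measured regulators of nuclear genes for mitochondria, coactivators included, 5 were lower in striatum and 1, Yy1, was higher (0.31). In all 85.7% of the 7 were called between wild-type tissues, against 73.8% of all genes kept. The ETS factor GABP has subunits encoded by Gabpa (-0.46) and Gabpb1 (-0.997), and the coactivators of the PGC-1 family are encoded by Ppargc1a (-0.47) and Ppargc1b (-1.58). None was called between genotypes. Members with an ETS core had a median tissue difference of -0.06 (25 genes) and members without one -0.14 (41 genes). Members with an NRF1 core had -0.18 (15 genes) against -0.14 (51 genes), and members with a YY1 core 0.01 (12 genes) against -0.16 (54 genes). These differences were not tested. Among 9 genes for mitochondrial transcription and DNA maintenance 3 were higher and 4 lower in striatum, with Polg2, the accessory subunit of the DNA polymerase, at -2.89 and Polrmt, the RNA polymerase, at -0.88.

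The products of mitochondrial translation join nuclear-encoded subunits in the oxidative phosphorylation complexes. Of 71 such nuclear subunits 54 were called lower in wild-type striatum than in cerebellum and 0 higher by limma, with a median of -0.34. Among 75 mitochondrial ribosomal protein genes 32 were lower and 11 higher, and over all genes kept 41.6% were lower and 32.1% higher. In Q111 striatum 5 of the 71 subunits were called lower and 0 higher than in wild type, beside 1.9% and 0.873% of all genes kept. The 5 were led by Atp5g1 (-0.34, limma adjusted p = 0.00269) and Cox5b (-0.30, adjusted p = 0.00536). The median of the 71 was -0.09. Cytosolic ribosomal protein genes, 42 measured, leaned the other way between tissues, 20 higher and 4 lower in striatum with a median of 0.12, and none was called between genotypes in either tissue. The difference between these lists was not tested.

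Defining markers of the labelled tissues were present. All 12 measured striatal projection neuron markers were higher in wild-type striatum, with a median of 5.19, and all 8 granule neuron and 7 Purkinje cell markers were lower, with medians of -8.69 and -7.20. Oligodendrocyte markers were higher in striatum for 10 of 10, with a median of 1.37, and microglia markers for 8 of 8, with a median of 2.05. Astrocyte markers were lower for 7 and higher for 2 of 10. The part of these markers' cell types in the differences of the mitochondrial ribosomal protein genes was not tested. Arrays of a group correlated with each other at 0.983 or more over all probe sets kept.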

How the data were processed

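Total RNA of 24 samples was measured on Affymetrix MG430 2.0 arrays. The deposited table holds 1 value per probe set and array made with GCRMA by the authors, per the submitters' processing notes (version and parameters not given in the sources used here). The log base is not stated, and the deposited values, from -0.77 to 16.33, were read as log2. No normalisation was added. The number of arrays limits the precision. Gene names came from the platform annotation, which gives 1 symbol for 34945 probe sets and several for 932. The 64 control probe sets and probe sets with a mean under 4 in both tissues were left out, which kept 20738. One mean per group was fitted with limma 3.58.1 (R 4.3.3) on all arrays, and p-values were adjusted by Benjamini-Hochberg over all probe sets kept. Differences are of log2 means. On simulated data the fit was tested with known changes. Promoters were searched with Python 3.11.15 and pandas 2.3.3.

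Replicate numbers 1 to 6 recur in every group. Correlations of deviations between arrays of the same number and tissue ran from -0.42 to 0.12. Between the tissues of a genotype they ran from -0.05 to 0.18. Not all were above 0.1, and the numbers were not taken as pairs. Between genotypes this check cannot decide on pairing, since number set means that nearly coincide over both genotypes push the correlations below 0. Members and lists were chosen with earlier results of these data known, and the pattern for cytosolic ribosomal proteins and the promoters printed were chosen after values were seen. Members named are those called between genotypes, otherwise the 3 largest each way, the 8 largest called differences each way between wild-type tissues, those with groups that do not overlap between genotypes, those that another probe set contradicts, and those of special role; of each list, the leading members. Alternatives were the filter, normalisation, blocks, number sets, thresholds, fits, probe set choice and each array left out.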

Additional observations from a re-analysis of the deposited data

Results flagged for a closer look

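Of 132 groups of 6 arrays of the members described, 6 held an array flagged by Dixon's test. Its gap to the nearest other, divided by the range of the group, exceeded Dixon's 95% critical value for 6 samples. By chance about 1 in 20 groups is flagged. In Q111 cerebellum, array 1 read 7.63 for Mrps16 (others 7.98 to 8.07) and array 6 read 5.38 for Mrpl14 (others 4.88 to 5.03). In wild-type cerebellum, array 5 read 7.58 for Mrpl47 (others at 7.90 or above) and 8.25 for Mrps36 (others 8.51 to 8.65). In wild-type striatum, array 3 read 7.98 for Mrpl48 (others 8.25 to 8.40) and array 6 read 6.67 for Mrps25 (others 7.19 to 7.49).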

How the results depend on the processing

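Among members, 2 were called in striatum, and this count became 0 at an adjusted p under 0.01, 4 at 0.1, 1 without the filter, with quantile normalisation, median centring, the number set as a block or the 2 groups alone, and 0 with either number set alone. With the replicate block it was 0 in striatum, 0 in cerebellum, 39 in the wild-type and 44 in the Q111 tissue comparison. In cerebellum 0 became 3 at 0.1 and with array weights, 2 with quantile normalisation or median centring, and 1 with an intensity trend or the mean of a gene's probe sets. Leaving out single arrays gave 1 to 3 in striatum, 0 to 1 in cerebellum, 0 to 0 for the interaction, 41 to 45 in wild-type and 45 to 49 in Q111 tissue comparisons. Numbers 4 to 6 alone gave 25 called in the wild-type tissue comparison, and numbers 1 to 3 alone gave 23 in Q111. Over all probe sets kept, calls in striatum were 595 in the main fit, 86 at 0.01 and 1344 at 0.1. Without the filter 384 probe sets were called. In cerebellum 95 probe sets were called in the main fit and 292 at 0.1.

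Median member differences ran over single arrays left out from -0.12 to -0.08 in striatum, -0.08 to -0.02 in cerebellum, -0.07 to -0.02 for the interaction, -0.19 to -0.13 in wild-type and -0.23 to -0.19 in Q111 tissue comparisons. In cerebellum the median was 0.022 with quantile normalisation, 0.049 with median centring, -0.14 with numbers 1 to 3 and 0.047 with numbers 4 to 6. For the interaction it was 0.094 and -0.15 in these sets. With numbers 4 to 6 it was -0.18 in striatum, -0.059 in the wild-type and -0.30 in the Q111 tissue comparison.

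Turned signs were 0.00023 for Mrps18a (wild-type tissue) with median centring; -0.060 for Mrpl42 (cerebellum) and 0.15 for Mrpl34 (interaction) with numbers 1 to 3; -0.19 for Mrpl1 (striatum) and -0.15 for Mrps23 (interaction) with numbers 4 to 6. With the dimmest probe set they were -0.011 for Mrpl1 (striatum), -0.39 for Mrpl3 and 0.25 for Mrpl51 (wild-type tissue), and -0.28 for Mrpl3, 0.083 for Mrpl44, 0.12 for Mrpl51, 0.0051 for Mrps24 and -0.036 for Mrps25 (Q111 tissue). The cause was not tested. Over all values of named members and all alternatives, single arrays left out included, 1542 kept direction and side of the threshold, 54 lost the call, 13 gained one and 13 turned sign. Means of the number sets over both genotypes nearly coincided within a tissue (SD over probe sets 0.04). With the number set as a block, calls over all probe sets kept in striatum went from 595 to 316, and the adjusted p of Mrpl46 from 0.0459 to 0.0734.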
